A study of Mus musculus with 6 samples.

Results

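The chemokines and their receptors were examined in the livers of *gSpns1*-cKO and control mice. Every protein-coding gene of the deposited count table whose name starts with Ccl, Ccr, Cxcl or Cxcr followed by a digit was taken, which gave 59 of the 54532 genes listed (22046 of them protein coding). These are 42 ligand rows and 17 receptor rows. Of the 59, 52 lie on assembled chromosomes of mouse GRCm38, and 7 are copies of *Ccl19*, *Ccl21a*, *Ccl21b*, *Ccl21c* and *Ccl27a* on unplaced scaffolds. At least 1 count was found for 50 of the rows, 32 reached 10 counts in any library, and 27 passed the filter for testing.

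The livers came from 3 *gSpns1*-cKO and 3 control mice on a C57BL/6 background, with 1 polyA-selected RNA library per liver. SPNS1 is a lysosomal transporter of lysophospholipids, and the RNA-Seq was done to learn which pathways lipid accumulation alters. The paper reports higher expression of inflammatory and cell adhesion genes, and more macrophages by staining, in *gSpns1*-cKO livers. The *gSpns1*-cKO mice carried floxed *Spns1* alleles (*Spns1* fl/fl) and Rosa26Cre-ERT2, a Cre recombinase expressed in the whole body that tamoxifen switches on. According to the methods, tamoxifen was injected at 50 mg/kg on postnatal days 11, 13 and 15, which removes exon 3. The methods name *Spns1* fl/fl littermates as the controls of this line, whereas the sample labels give the control genotype as wild type. Sex, age at harvest and whether the controls received tamoxifen are not given for these libraries in the sources used here.

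Libraries held between 30350002 and 35295611 counts. Levels are given as CPM, the usual depth-normalised count with the library size scaled by TMM (trimmed mean of M-values), and 3 counts correspond to between 0.0763 and 0.119 CPM. Differences are log2 fold changes of *gSpns1*-cKO over control with their standard error (SE), and a gene was called higher or lower at an adjusted p under 0.05 in edgeR's quasi-likelihood test over 15449 genes. The targeted gene, *Spns1*, had 35.9, 50.7 and 34.6 CPM in control livers and 17.8, 30.6 and 17.8 CPM in *gSpns1*-cKO livers. Its log2 fold change was -0.87 (SE 0.255, adjusted p = 0.03), and without TMM scaling it was -0.43 (adjusted p = 0.213). The call was also lost under upper-quartile scaling (adjusted p = 0.0635) and without control 2, *gSpns1*-cKO 1 or *gSpns1*-cKO 3, with an adjusted p of up to 0.091. Of 10 hepatocyte markers 5 were lower and 5 were not called, among the latter *Cps1* (0.36) and *Trf* (0.33) with positive log2 fold changes. Their summed level, most of it *Alb* (69300 CPM on average in controls), was between 109000 and 121000 CPM in controls and between 66000 and 75500 CPM.

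Chemokines are small secreted proteins that steer leukocytes along concentration gradients through G protein-coupled receptors. The CC and CXC families are named for the spacing of their first conserved cysteines. Inflammatory members are induced on demand and draw in monocytes, neutrophils or activated lymphocytes, whereas homeostatic members are produced constantly and place cells within tissues. In liver, Kupffer cells, endothelium, stellate cells and hepatocytes can all produce them, and most of the receptors sit on leukocytes.

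Of the 59 rows, 16 were higher in *gSpns1*-cKO livers and 1, *Ccl27a*, was lower. Among all genes tested, 21.3% were called higher and 20.5% were called lower, against 16 and 1 of the 27 members tested (59.3% higher). The median log2 fold change was 1.32 over those 27 and 0.014 over all genes tested, with a range among the 27 of -0.57 to 3.73. A gene that passed the filter on low counts only through its *gSpns1*-cKO libraries had to differ, so these shares describe the members that passed and not the whole family. All 3 *gSpns1*-cKO livers lay above all 3 control livers in CPM for 16 tested members, against 27.1% of all genes tested, and 15 of the 16 called genes were among them. Scaling by library size alone moved the median of all genes to 0.46, with 7289 higher and 970 lower, and 18 members were then higher while *Ccl27a* was no longer called. The highest CPM of the 16 genes was in *gSpns1*-cKO 1 for 4 genes, in *gSpns1*-cKO 2 for 4 and in *gSpns1*-cKO 3 for 8.

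**Figure D1:**
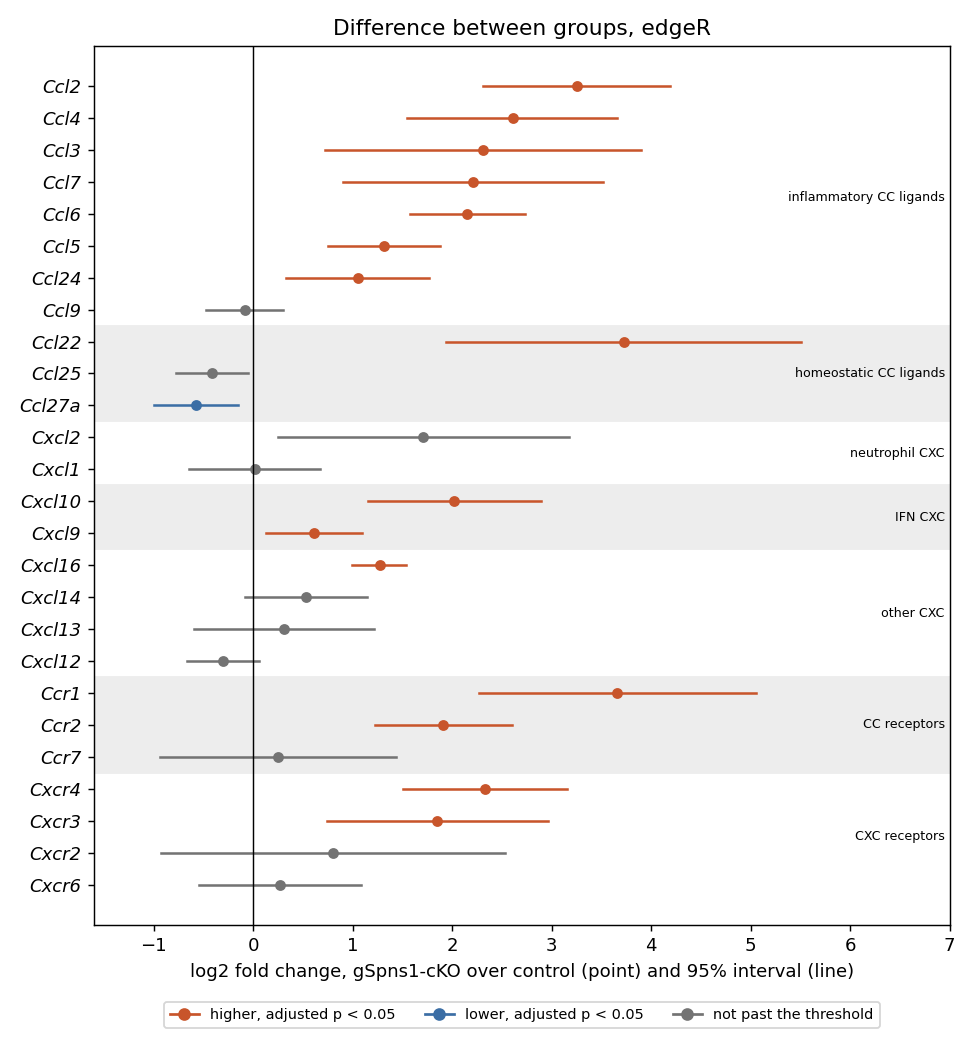
Log2 fold change of *gSpns1*-cKO over control (points) with 95% confidence intervals (bars) for 26 tested chemokine and receptor genes, ordered by role and coloured by call. The values run from -0.57 for *Ccl27a* to 3.73 for *Ccl22*, and 15 of the genes plotted are called higher.

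The promoters of 4 ligands are shown because these genes are neighbours on their chromosomes that differ in level or change. *Ccl6* and *Ccl9* lie side by side on chromosome 11, and *Cxcl9* and *Cxcl10* on chromosome 5. Each sequence is the 250 bases before the start site in RefSeq (GRCm38.p6), 5′ to 3′ on the minus strand of the genome: *Ccl6* chr11:83593088-83593337, *Ccl9* chr11:83578637-83578886, *Cxcl10* chr5:92348890-92349139 and *Cxcl9* chr5:92328080-92328329. Capitals mark matches, on either strand, to the NF-κB consensus or to the interferon-response core GAAANNGAA.
Ccl6: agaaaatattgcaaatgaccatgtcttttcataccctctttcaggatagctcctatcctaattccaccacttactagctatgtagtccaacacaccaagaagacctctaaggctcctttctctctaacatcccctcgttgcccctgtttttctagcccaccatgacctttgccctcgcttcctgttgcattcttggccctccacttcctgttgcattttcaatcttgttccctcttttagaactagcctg
Ccl9: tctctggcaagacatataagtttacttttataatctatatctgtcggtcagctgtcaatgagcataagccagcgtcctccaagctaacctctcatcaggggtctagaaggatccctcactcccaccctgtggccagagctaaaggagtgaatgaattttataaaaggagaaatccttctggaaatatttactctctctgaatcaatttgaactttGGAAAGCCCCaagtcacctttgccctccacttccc
Cxcl10: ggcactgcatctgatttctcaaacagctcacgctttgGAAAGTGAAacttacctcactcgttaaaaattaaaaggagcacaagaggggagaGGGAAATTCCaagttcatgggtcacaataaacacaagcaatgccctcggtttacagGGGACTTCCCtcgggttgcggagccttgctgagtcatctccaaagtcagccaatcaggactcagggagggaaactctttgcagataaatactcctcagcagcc
Cxcl9: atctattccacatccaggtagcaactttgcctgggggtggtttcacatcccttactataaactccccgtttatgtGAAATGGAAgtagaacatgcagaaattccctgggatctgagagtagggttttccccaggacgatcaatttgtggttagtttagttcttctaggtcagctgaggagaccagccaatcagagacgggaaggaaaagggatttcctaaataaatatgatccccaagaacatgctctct
*Cxcl10* holds 2 NF-κB matches, at bases 159 to 150 and 103 to 94 before the start site, and 1 interferon-response match at bases 213 to 205. *Cxcl9* holds 1 interferon-response match at bases 175 to 167, *Ccl9* 1 NF-κB match on the opposite strand at bases 35 to 26, and *Ccl6* none. Among 32851 promoters of this length, 3.9% held the NF-κB consensus and 7.13% the interferon core. RefSeq promoters were found for 38 members, of which 7 held the first and 8 the second. For the 9 of these called higher, the numbers were 1 and 4. A match of letters is a description of the sequence and was not tested for binding.

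Among the inflammatory CC ligands, 7 of the 8 tested were higher, with a median log2 fold change of 2.18, against 21.3% of all genes tested. *Ccl2*, *Ccl3*, *Ccl4* and *Ccl7* passed the filter only through their *gSpns1*-cKO libraries. The 7 of 8 and the median therefore describe the ligands that passed. *Ccl2*, the main attractant of monocytes through CCR2, had 0.356, 0.260 and 0.237 CPM in control livers and 1.72, 2.40 and 4.10 CPM in *gSpns1*-cKO livers. All 3 *gSpns1*-cKO livers lay far above the controls, but they differed among themselves more than the controls did. Its mean rose from 0.284 ± 0.0629 to 2.74 ± 1.22 CPM (SD, n = 3 each), a log2 fold change of 3.25 (SE 0.423, adjusted p = 0.000256). *Ccl7*, a second CCR2 ligand in the same gene cluster, had 2, 3 and 3 counts in controls and 10, 18 and 24 counts in *gSpns1*-cKO livers. These groups did not overlap, and the log2 fold change was 2.21 (SE 0.591, adjusted p = 0.0129). Without control 1 or *gSpns1*-cKO 3 the adjusted p of *Ccl7* reached up to 0.0704.

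*Ccl3* and *Ccl4*, macrophage inflammatory proteins that attract monocytes and lymphocytes, were low in control livers. *Ccl4* had 6, 6 and 3 counts in controls and 41, 27 and 57 counts in *gSpns1*-cKO livers, with a log2 fold change of 2.61 (SE 0.477, adjusted p = 0.00181). *Ccl3* had 6, 11 and 0 counts in controls and 43, 20 and 50 counts in *gSpns1*-cKO livers, with a log2 fold change of 2.31 (SE 0.712, adjusted p = 0.0261). For both genes the groups were separate, with *gSpns1*-cKO 2 the lowest of its group. The call for *Ccl3* was lost without control 1, *gSpns1*-cKO 1 or *gSpns1*-cKO 3, where the adjusted p was up to 0.0888, and its log2 fold change was 3.12 without control 2.

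*Ccl6*, a myeloid CC chemokine of rodents, had the largest gain in level per kb among the ligands. It had 3.95, 7.53 and 8.65 CPM in control livers and 31.1, 28.6 and 29.9 CPM in *gSpns1*-cKO livers. The *gSpns1*-cKO livers were close together and stood well above every control. The mean rose from 6.71 ± 2.46 to 29.9 ± 1.27 CPM (SD, n = 3 each), a log2 fold change of 2.15 (SE 0.249, adjusted p = 0.000365). *Ccl9*, its neighbour and relative and the ligand next in abundance to *Cxcl12*, had 82.8, 80.1 and 91.4 CPM in controls and 57.3, 90 and 92.6 CPM in *gSpns1*-cKO livers. Here the groups overlapped, and only *gSpns1*-cKO 1 lay below the controls. The log2 fold change of *Ccl9* was -0.084 (95% confidence interval -0.47 to 0.30, adjusted p = 0.725), an interval that lies wholly below that of *Ccl6* (1.58 to 2.73). The sign of the *Ccl9* value turned with library size scaling (0.36), upper-quartile scaling (0.051) and without *gSpns1*-cKO 1 (0.10).

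*Ccl5*, made by T cells, NK cells and macrophages and bound by CCR1, rose by 1.32 on the log2 scale (SE 0.255, adjusted p = 0.00249). *Ccl24*, an eosinophil attractant also produced by macrophages, rose by 1.05 (SE 0.326, adjusted p = 0.0254). That call was lost without control 1, control 3, *gSpns1*-cKO 2 or *gSpns1*-cKO 3, where the adjusted p was up to 0.0989.

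Among the CC ligands listed as homeostatic or barrier, 17 rows of which 3 were tested, 1 gene was higher and 1 lower. The name is that of the list, and its members *Ccl22* and *Ccl17* had few or no counts in controls. *Ccl22*, a product of dendritic cells and macrophages that attracts CCR4-bearing T cells, was counted 2, 1 and 0 times in controls and 15, 12 and 32 times in *gSpns1*-cKO livers. The groups did not overlap, and the log2 fold change of 3.73 (SE 0.808, adjusted p = 0.0045) became 4.59 without control 1. Because the controls held so few counts, the ratio of counts, 14.6, has a 95% interval of 4.75 to 72.7, which covers counting error only. *Ccl17*, the CCR4 ligand next to *Ccl22* on chromosome 8, had no count in any control liver and 2, 7 and 20 counts in *gSpns1*-cKO livers. It did not pass the filter. Its summed *gSpns1*-cKO counts over summed library sizes were 2.39 times the level that 3 counts in each control library would give. Of its 29 counts, 20 came from *gSpns1*-cKO 3.

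*Ccl27a*, a skin-homing ligand of CCR10, was the only member called lower. It had 11.3, 9.68 and 6.68 CPM in controls and 6.14, 6.12 and 6.33 CPM in *gSpns1*-cKO livers. The groups were separate, but control 3 lay close to the *gSpns1*-cKO livers. The log2 fold change was -0.57 (SE 0.194, adjusted p = 0.0357), and the call was lost in every fit that left out a library except control 3, with an adjusted p of up to 0.132. It was also lost under library size and upper-quartile scaling. *Ccl27a* overlaps *Il11ra1*, on the other strand, which had 9471 counts against 1490 for *Ccl27a* and was itself called lower. How counting treated strand is not given in the sources used here, so reads of the 2 genes cannot be told apart. *Ccl25*, the ligand of CCR9 in thymus and gut, had 7.40, 7.70 and 6.44 CPM in controls and 4.98, 5.68 and 5.52 CPM in *gSpns1*-cKO livers. These groups did not overlap, yet the log2 fold change of -0.41 (95% confidence interval -0.77 to -0.056) had an adjusted p of 0.0616, and it was 0.029 under library size scaling. *Ccl25* overlaps *Elavl1* in the same way, with 1222 counts against 8102.

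Neither of the 2 tested neutrophil attractants of the CXC family was called by edgeR, DESeq2 or limma-voom, and 1 of them had an unadjusted edgeR p under 0.05. *Cxcl1* had 6.15, 12.2 and 11 CPM in controls and 8.09, 13.2 and 8.45 CPM in *gSpns1*-cKO livers, so the groups overlapped. Its log2 fold change was 0.019 (95% confidence interval -0.64 to 0.67, adjusted p = 0.965), and it was -0.24 without control 1 or without *gSpns1*-cKO 2. *Cxcl2* had 1, 4 and 7 counts in controls and 11, 16 and 28 counts in *gSpns1*-cKO livers. The groups did not overlap in CPM, but the log2 fold change of 1.71 (95% confidence interval 0.25 to 3.17) had an adjusted p of 0.059. *Cxcl2* passed the threshold without control 3 (adjusted p = 0.0414) and under both other scalings. *Cxcl5*, with 0, 1 and 4 counts in controls and 14, 7 and 24 in *gSpns1*-cKO livers, was too sparse for the filter.

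Both interferon-induced CXC ligands, which draw in CXCR3-bearing T and NK cells, were higher. *Cxcl10* had 1.21, 1.20 and 1.11 CPM in controls and 4.39, 2.42 and 7.53 CPM in *gSpns1*-cKO livers. The controls were nearly equal and the *gSpns1*-cKO livers were spread widely above them. The log2 fold change was 2.02 (SE 0.389, adjusted p = 0.00287). *Cxcl10* overlaps *Art3* on the other strand, which had 269 counts in all against 646. *Cxcl9* had a smaller difference of 0.61 (SE 0.216, adjusted p = 0.043) with overlapping groups, since *gSpns1*-cKO 2 lay below control 3. That call was lost without control 1, control 2, *gSpns1*-cKO 1 or *gSpns1*-cKO 3, where the adjusted p was up to 0.146. The third CXCR3 ligand, *Cxcl11*, is typed as a polymorphic pseudogene and is therefore no member. It had a log2 fold change of -0.54 (adjusted p = 0.226).

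Of the other CXC ligands, *Cxcl16* was higher and 3 tested genes were not called. *Cxcl16*, a membrane-bound ligand of CXCR6 that also binds oxidised lipoprotein, had 7.90, 9.13 and 7.78 CPM in controls and 20.5, 18.9 and 20.3 CPM in *gSpns1*-cKO livers. Both groups were tight and far apart. The log2 fold change was 1.27 (SE 0.124, adjusted p = 5.28e-05), the smallest adjusted p of the 27 tested members in this fit. *Zmynd15*, which overlaps it on the other strand, had 810 counts in all against 2960 for *Cxcl16*. *Cxcl12*, the stromal ligand of CXCR4 and the most abundant chemokine in these livers, had 321, 432 and 433 CPM in controls and 271, 362 and 329 CPM in *gSpns1*-cKO livers. The groups overlapped, and the log2 fold change of -0.30 had a 95% confidence interval of -0.66 to 0.062 (adjusted p = 0.165) and was 0.15 under library size scaling. *Cxcl13*, a B cell attractant, and *Cxcl14* had log2 fold changes of 0.31 (adjusted p = 0.571) and 0.53 (adjusted p = 0.147).

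**Figure D2:**
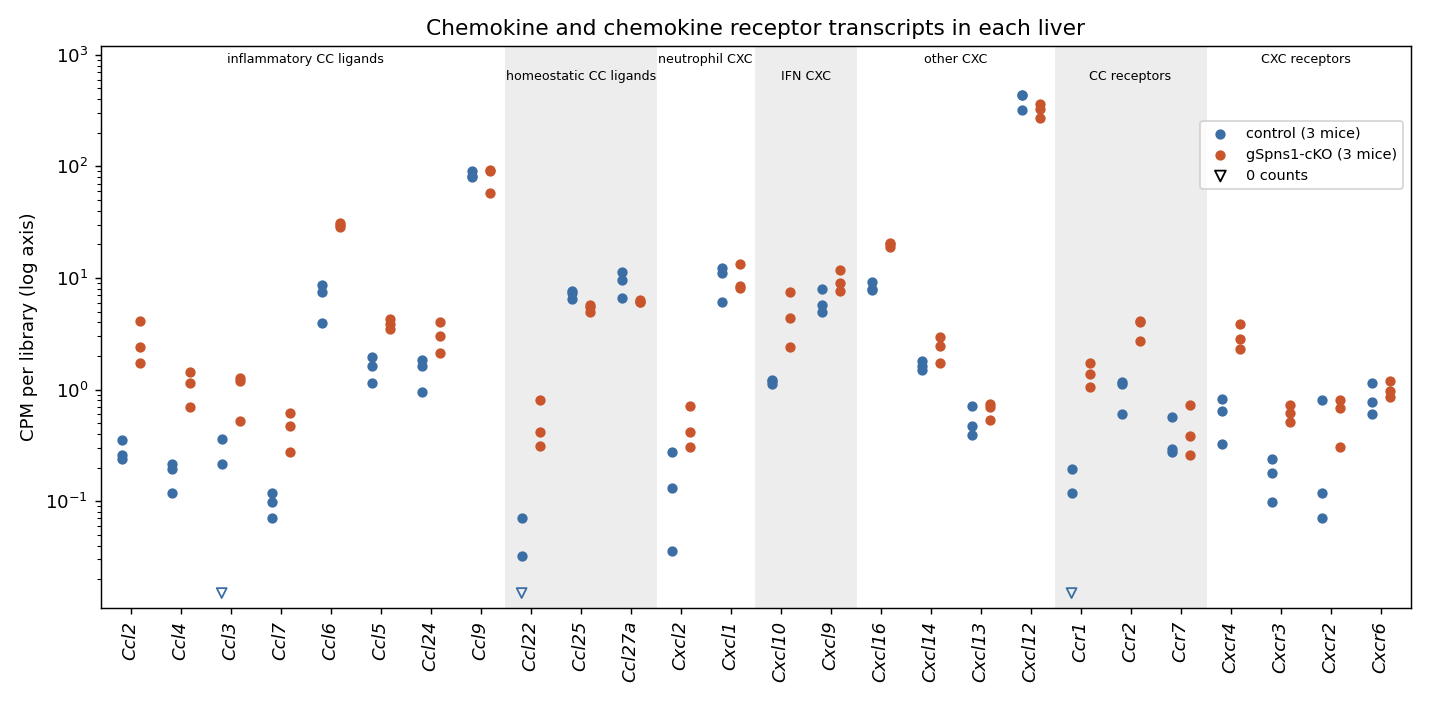
CPM on a log axis in each of the 3 control and 3 *gSpns1*-cKO livers (points) for 26 tested members, grouped by role, with open triangles for libraries without a count. The *gSpns1*-cKO points of *Ccl2*, *Ccl6*, *Cxcl16*, *Ccr2* and *Cxcr4* lie above every control point, whereas those of *Ccl9*, *Cxcl1* and *Cxcl12* overlap the controls.

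Counts were divided by gene length to compare levels between genes. Summed over the 35 ligands on assembled chromosomes, the level was 101 ± 11.5 CPM per kb in controls and 119 ± 13 CPM per kb in *gSpns1*-cKO livers (SD, n = 3 each). The sum was dominated by *Cxcl12* and *Ccl9*, which together went from 76.2 ± 8.62 to 65.5 ± 11.8 CPM per kb. The other 33 ligands together had 21.1, 26.8 and 25.9 CPM per kb in controls and 51.7, 51.3 and 56.5 in *gSpns1*-cKO livers. The totals of the groups overlapped, with 87.5, 106 and 109 CPM per kb in controls and 104, 125 and 127 in *gSpns1*-cKO livers, while the remaining ligands did not. *Ccl6* went from a mean of 3.64% to 14.2% of the ligand sum, *Cxcl16* from 2.74% to 5.61% and *Ccl5* from 1.64% to 3.45%. *Cxcl12* went from 47.8% to 33% and *Ccl9* from 27.8% to 21.9%. Shares of a sum move against each other, so these falls are not independent of the rise of *Ccl6*.

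**Figure D3:**
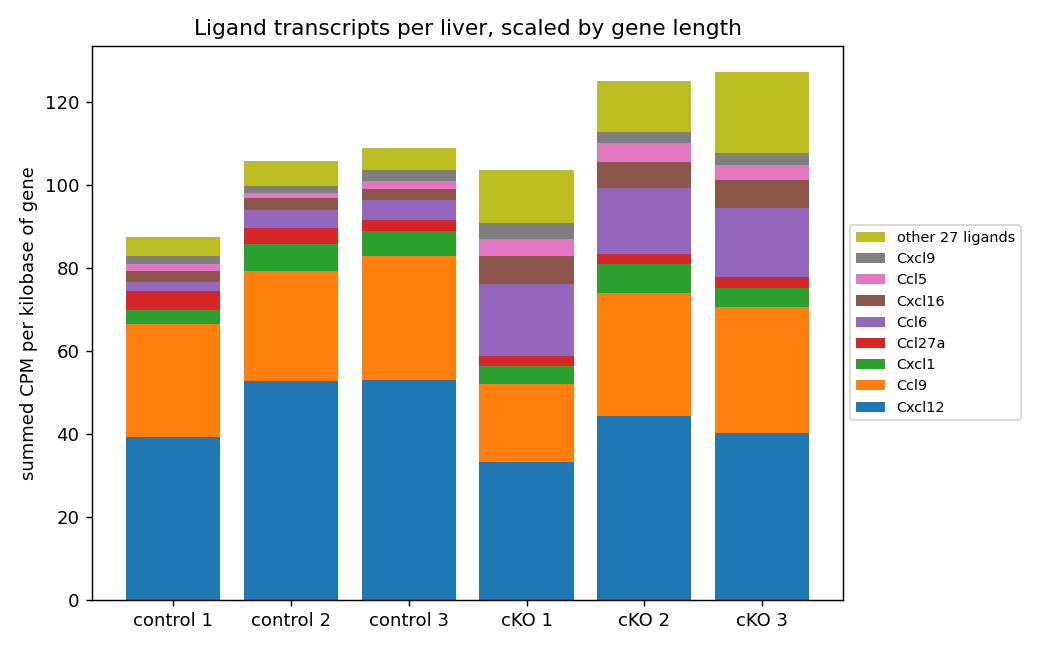
Ligand level per library in CPM per kb, stacked by gene, with the remaining 27 ligands summed. *Cxcl12* and *Ccl9* are the 2 largest bands of each bar, and the *Ccl6* and *Cxcl16* bands are thicker in the *gSpns1*-cKO livers.

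Of the 17 receptor genes, 8 were tested and 5 were higher, with a median log2 fold change of 1.88. By edgeR, DESeq2 and limma-voom 0 were lower, also at an unadjusted edgeR p under 0.05. Among all genes tested, 21.3% were called higher and 20.5% lower. *Ccr1*, *Cxcr2*, *Cxcr3* and *Cxcr4* passed the filter only through their *gSpns1*-cKO libraries. The 5 of 8 and the median therefore describe the receptors that passed. Summed per length, the receptors had 1.55, 1.83 and 1.82 CPM per kb in controls and 5.53, 5.11 and 4.90 CPM per kb in *gSpns1*-cKO livers. No *gSpns1*-cKO liver overlapped a control in this sum. In bulk tissue a change in the number of receptor-bearing cells and a change in RNA per cell cannot be told apart.

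*Ccr1*, a receptor of monocytes, macrophages and neutrophils, had 0, 6 and 3 counts in controls and 38, 53 and 68 counts in *gSpns1*-cKO livers. Its log2 fold change was 3.66 (SE 0.628, adjusted p = 0.00125), and it was 4.53 without control 2 and 3.08 without control 1. *Ccr2*, which marks inflammatory monocytes, had 0.605, 1.17 and 1.11 CPM in controls and 4.03, 2.71 and 4.12 CPM in *gSpns1*-cKO livers, with a log2 fold change of 1.91 (SE 0.313, adjusted p = 0.000982). The groups were separate for both receptors. *Ccr7*, which guides dendritic cells and naive T cells to lymph nodes, had 0.569, 0.292 and 0.277 CPM in controls and 0.723, 0.261 and 0.382 CPM in *gSpns1*-cKO livers. These groups overlapped, with a log2 fold change of 0.25 (95% confidence interval -0.94 to 1.44, adjusted p = 0.737) that was -0.24 without *gSpns1*-cKO 1.

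*Cxcr4*, the receptor of *Cxcl12* on most leukocytes and on endothelium, had 0.640, 0.325 and 0.830 CPM in controls and 3.84, 2.84 and 2.29 CPM in *gSpns1*-cKO livers. The groups were separate, with a log2 fold change of 2.33 (SE 0.37, adjusted p = 0.000809). *Cxcr3*, on activated T and NK cells, had 5, 3 and 6 counts in controls and 22, 28 and 20 counts in *gSpns1*-cKO livers, with a log2 fold change of 1.85 (SE 0.501, adjusted p = 0.0137). Without control 2 or *gSpns1*-cKO 2 its adjusted p was up to 0.0523. *Cxcr2*, the main neutrophil receptor, had 2, 25 and 3 counts in controls and 11, 31 and 27 in *gSpns1*-cKO livers. Control 2 stood apart from the other controls and overlapped the *gSpns1*-cKO livers, so the log2 fold change of 0.80 (95% confidence interval -0.93 to 2.53) had an adjusted p of 0.434. Without control 2 it was 2.63 (adjusted p = 0.0244). *Cxcr6*, on NK and tissue-resident T cells, had 0.605, 0.779 and 1.15 CPM in controls and 0.973, 1.20 and 0.865 CPM in *gSpns1*-cKO livers. Its groups overlapped, the log2 fold change was 0.27 (95% confidence interval -0.54 to 1.08, adjusted p = 0.585), and its adjusted p stayed above the threshold in every fit. *Cxcr6* overlaps *Fyco1* on the other strand, which had 6100 counts in all against 185, so that reads of *Fyco1* cannot be told apart from its own.

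Ligands and receptors were set side by side for 30 known pairs. In 9 pairs both partners were higher, among them *Ccl2* and *Ccr2*, *Ccl3* and *Ccr1*, and *Cxcl10* and *Cxcr3*. For *Cxcl12* and *Cxcr4* the receptor was higher and the ligand was not called, and for *Cxcl16* and *Cxcr6* the reverse held. *Ccl24* and *Ccl22* were higher, while *Ccr3* had too few counts to test and *Ccr4* had no count in any library. Many pairs share a ligand or a receptor, so the 9 are not independent.

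The genes lie in clusters. On chromosome 11, *Ccl2* and *Ccl7* (82035571 to 82305690, 6 members) were both higher, and in the second cluster (83525778 to 83664683) *Ccl5*, *Ccl6*, *Ccl3* and *Ccl4* were higher and *Ccl9* was not called. In the receptor cluster on chromosome 9, *Ccr1* and *Ccr2* were higher and *Cxcr6* was not called. The 4 other genes tested there, *Fyco1*, *Lztfl1*, *Gm10052* and *Xcr1*, were not called.

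Of the 32 rows that reached 10 counts in any library, 5 were not tested: *Ccl17*, *Cxcl5*, *Ccl28*, *Ccr9* and *Ccr10*. With a filter of 10 counts in any library, 17342 genes were tested and 19.3% were higher, against 18 of the 32 members, and *Ccl17* (adjusted p = 0.0242) and *Cxcl5* (adjusted p = 0.0454) were the additional 2. Both reach 10 counts only through *gSpns1*-cKO libraries, so the filter already selects on the difference and the share of 18 in 32 is a description. *Ccl28*, *Ccr9* and *Ccr10* were not called, with adjusted p of 0.405, 0.64 and 0.416. Another 27 rows never reached 10 counts and 9 had none at all. *Ccl8*, a ligand of CCR8 in mouse, had 0, 1 and 0 counts in controls and 2, 9 and 5 in *gSpns1*-cKO livers, a ratio of counts of 11.9 with a 95% interval of 1.84 to 497. *Ccl12* had 0 counts in all controls and 3, 2 and 5 in *gSpns1*-cKO livers. *Ccr3* had 0 in all controls and 1, 2 and 7. The lymphoid tissue ligands *Ccl19* and *Ccl21a* reached 4 and 1 counts, and *Ccr6*, *Cxcr5* and *Cxcr1* reached 7, 6 and 5.

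The rest of the chemokine system was counted from lists of related genes. These counts are to be read against all genes tested, of which 21.3% were called higher and 20.5% lower. *Pitpnm3*, *Pf4* and *Pik3cg* passed the filter only through their *gSpns1*-cKO libraries. The counts and medians of these lists therefore describe the genes that passed. Of 12 tested XC, CX3C, platelet and atypical chemokine system genes, 7 were higher and the other 5 were not called, with a median log2 fold change of 1.79. They were *Cx3cr1*, the patrolling monocyte receptor (2.31), *Pf4*, platelet factor 4 (2.27), *Pitpnm3*, reported as a CCL18 receptor (2.15), and the chemerin receptor *Cmklr1* (2.09). The scavenging receptor *Ackr3* (1.89), the ligand *Cx3cl1* (1.87) and *Ccrl2* (1.71) completed them. The chemerin gene *Rarres2* (-0.32, adjusted p = 0.0608), *Xcr1* (-0.50), *Ackr1* (0.56), *Ackr2* (-0.10) and *Ackr4* (-0.071) were not called. Of 49 tested genes of chemotaxis signaling, 25 were higher, 2 lower and 22 not called, with a median of 0.35. The highest were *Pak1*, a Rac effector kinase (2.93), *Rgs1*, which damps chemokine receptor signals (2.91), *Pik3cg*, the leukocyte PI3-kinase (2.38), and the formyl peptide receptor *Fpr1* (2.05). The 2 lower genes were *Ptk2b* (-0.83) and the NF-κB subunit *Rela* (-0.39).

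Markers of other cells were counted beside the chemokines, to be read against the 21.3% of all tested genes called higher and the 20.5% called lower. The lists were chosen with earlier results of these data known, so the counts are a description. Sparse markers such as *Ncr1*, with 1 count over the controls and 56 over the *gSpns1*-cKO livers, passed the filter only through the latter. The same held for *Retnlg*, *Cd8b1* and *Flt3*. Of 10 monocyte and macrophage markers 8 were higher and 1 was lower, and the summed level went from between 143 and 237 CPM in controls to between 366 and 502 CPM. All 6 Kupffer cell markers were higher (126 to 216 CPM against 431 to 683 CPM). All 4 tested neutrophil markers were higher (3.81 to 6.01 CPM against 10 to 15.8 CPM over the 10 listed). These 4 were *S100a8*, *S100a9*, *Retnlg* and *Csf3r*. The untested granule genes *Ngp*, *Camp*, *Mpo* and *Elane* had between 7 and 25 counts over the 3 controls and between 6 and 17 over the 3 *gSpns1*-cKO livers, with a lower mean CPM in *gSpns1*-cKO for each, and *Ltf* had 14 and 22 counts. *Ly6g*, the defining neutrophil marker, had 0, 2 and 0 counts in controls and none in *gSpns1*-cKO livers. All 4 tested NK cell markers were higher (0.974 to 1.23 CPM against 4.63 to 5.25 CPM over the 7 listed). These 4, *Ncr1*, *Klrb1c*, *Gzma* and *Klrd1*, all passed the filter only through their *gSpns1*-cKO libraries. The 4 of 4 therefore describes the markers that passed, and *Klre1*, *Eomes* and *Prf1* were not tested. Of 9 tested T cell markers, *Cd8b1* was higher and *Cd4* lower, with summed levels of 6.01 to 6.64 CPM against 6.87 to 8.24 CPM. Of 4 tested B cell markers 0 were called by edgeR, DESeq2 or limma-voom, and 0 had an unadjusted edgeR p under 0.05 (1.86 to 3.38 CPM against 3.08 to 4.23 CPM). Stellate cell markers were higher in 6 of 8 cases (185 to 215 CPM against 497 to 551 CPM) and cholangiocyte markers in 5 of 5 (44.2 to 62.9 CPM against 170 to 279 CPM). Most of the stellate sum was *Dcn*, with a mean of 113 CPM in controls and 335 CPM in *gSpns1*-cKO livers. Most of the cholangiocyte sum was *Spp1*, with 44.6 and 195 CPM, whereas *Krt19* had 0.885 and 4.36 CPM. Endothelial markers were higher in 5 of 7 cases (144 to 158 CPM against 211 to 258 CPM) and dendritic cell markers in 3 of 5 (7.43 to 9.67 CPM against 18 to 19.5 CPM). The part of cell numbers in the chemokine values was not tested.

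**Figure D4:**
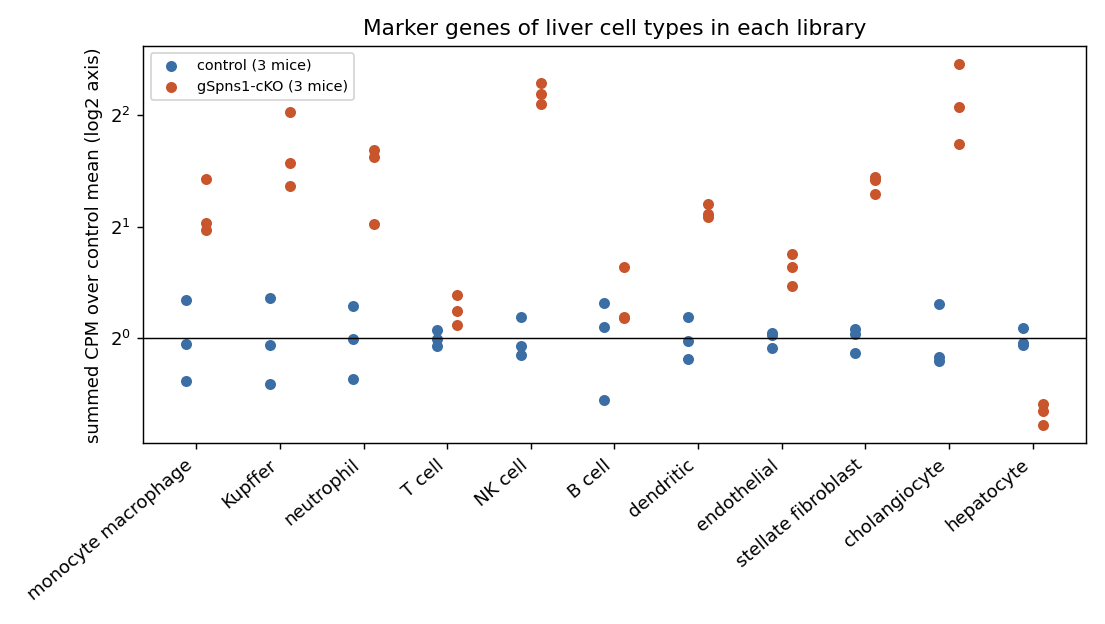
Summed CPM of each cell type marker list, divided by the mean of the 3 control livers, in each control and *gSpns1*-cKO liver (points, log2 axis, with a line at the control mean). The hepatocyte sum lies lower in every *gSpns1*-cKO liver than in any control, and the B cell sums overlap. Every other sum lies higher in every *gSpns1*-cKO liver than in any control, narrowly so for T cells.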

How the data were processed

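RNA-Seq libraries of 6 livers, 3 per group, were analysed, with groups taken from the sample labels. Reads were processed by the sequencing service, and the submitters' processing notes name fastp, HISAT2 2.0.5, featureCounts 1.5.0-p3 and mm10. The annotation release and strand setting are not given in the sources used here. The authors deposited whole-number counts per gene and library, which alone entered the tests. The deposited gene lengths, in bases, served for levels per kb. The authors also deposited FPKM values, a signal per group (mean of scaled counts), and columns of their own comparison (p-values and a log2 fold change), none of which was used. Positions of 52 of 52 members on assembled chromosomes are the same in GENCODE M21 (GRCm38).

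Counts were filtered by filterByExpr, scaled by TMM and compared in R 4.3.3 with edgeR 4.0.16 (quasi-likelihood test, robust, no covariate, Benjamini-Hochberg adjustment over all 15449 genes, threshold 0.05). SE is the size of the log2 fold change over the square root of F. Levels are mean ± SD over 3 livers. The p-values measure the spread between livers of a group, and 3 against 3 cannot go below p = 0.1 in an exact permutation test. Intervals for ratios of counts are exact binomial intervals on counts summed over the 3 livers of each group. They cover counting error only and leave out the spread between livers. The reads carry no molecular identifiers. The members, the role, pathway and marker lists and the ligand-receptor pairs were chosen with earlier results of these data known, as were the promoters shown. Genes named with every library's values were each member called lower, the 12 called members with the largest fold change, the 6 most abundant per kb, each tested receptor, and tested members that did not overlap between groups yet were not called. Of the pathway lists, the 4 called genes with the largest change were named, and every tested gene of the first list. *Cxcl11* and the untested members described were named after their values were seen. Some genes that this rule selects are not reported here. Alternatives were DESeq2 1.42.0, limma-voom (limma 3.58.1), 2 other scalings, 3 other filters, protein-coding genes only, a replicate block, leaving out each liver and a threshold of 0.01.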

Additional observations from a re-analysis of the deposited data

How the results depend on the processing

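Of the 16 genes called higher, 11, among them *Ccl2*, *Ccl4*, *Ccl5*, *Ccl6*, *Ccl22*, *Cxcl10*, *Cxcl16*, *Ccr1*, *Ccr2* and *Cxcr4*, stayed past 0.05 in every alternative fit that tested them, and the other 5 lost the call in at least 1. The number of members higher was 16 with DESeq2, limma-voom and protein-coding genes only, 17 with upper-quartile scaling and 18 with library size only. It was 9 with a filter of 10 counts in every library, which removes sparse members, 11 at a threshold of 0.01, and 12 to 17 when 1 liver was left out. The number lower was 0 to 1 when 1 liver was left out and 0 with library size only, upper-quartile scaling, the replicate block and a threshold of 0.01. Library size only turned *Ccl9* to 0.36, *Cxcl12* to 0.15 and *Ccl25* to 0.029, and upper-quartile scaling turned *Ccl9* to 0.051, while the median of all genes moved to 0.46 and 0.14. With 1 liver left out, *Ccl9* ranged from -0.20 to 0.10, *Cxcl1* from -0.24 to 0.21 and *Ccr7* from -0.24 to 0.65. The cause was not tested.

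Replicate numbers are shared by the groups, but samples of the same number did not deviate together (r = 0.0371, 0.0331 and -0.0279), and not every sample correlated best with its own number. With the replicate number as a block, 16 members were higher and 0 lower, *Ccl3* had an adjusted p of 0.0664 and *Cxcl2* of 0.0496, and 3084 genes were higher and 3016 lower overall. Depth limits the members under 10 counts, for which 3 counts are up to 0.119 CPM. The counts of other pathway genes called (34) and of marker genes called (49) stayed within 1.5 times under all alternatives.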

Other observations

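Rows outside the naming rule or the protein-coding type were counted as well. *Cxcl11* had 113, 51 and 55 counts in controls and 62, 82 and 60 in *gSpns1*-cKO livers, with control 1 the highest. The pseudogene *Ccl19-ps3* had 6, 12 and 0 counts in controls and 0, 17 and 4 in *gSpns1*-cKO livers, and *Ccl19-ps1* had none. *Xcl1*, lymphotactin, which was too sparse for the filter, had 3, 1 and 3 counts in controls and 29, 27 and 3 in *gSpns1*-cKO livers, so *gSpns1*-cKO 3 lay with the controls. *Ppbp*, a platelet chemokine, had 7, 8 and 10 counts against 17, 4 and 10.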
